A study of Mus musculus with 6 samples.

Results

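The Ms4a genes encode small membrane proteins that cross the membrane several times, and 6 of them, Ms4a3, Ms4a4c, Ms4a6b, Ms4a6c, Ms4a6d and Ms4a7, are described here out of 13839 genes measured. They were picked by symbol with their levels in the knockdown and control libraries already known, so the differences between those libraries are given as values and carry no test. The make-up of the family differed between shTet1 and shNS cells. The 3 Ms4a6 genes summed to 332.0 ± 98.5 FPKM in shTet1 and to 51.6 ± 5.41 FPKM in shNS (SD, n = 3 each), and Ms4a3 averaged 288 ± 25.9 FPKM in shTet1 and 397 ± 40.0 FPKM in shNS. FPKM scales reads by gene length and library size, so levels of different genes can be set side by side.

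Proteins of the MS4A family are best known as parts of larger receptor complexes. MS4A1 is the B cell antigen CD20, and MS4A2 is the beta chain of the high-affinity IgE receptor of mast cells and basophils, where it strengthens signals that pass through LYN and SYK. In the myeloid lineage Ms4a3 is a marker of progenitors of granulocytes and monocytes, and the human protein binds the phosphatase CDKN3, which acts on the cell cycle kinase CDK2. Members of the Ms4a6 group are found in monocytes and macrophages, and Ms4a7 marks tissue macrophages, those at the borders of the brain among them. Human MS4A4A has been placed beside the receptors CLEC7A and TREM2 on macrophages.

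The cells were MLL-ENL-ERtm, a mouse line labelled acute monocytic leukaemia. Its driver is the fusion oncoprotein MLL-ENL joined to the tamoxifen-responsive part of the oestrogen receptor, and whether the ligand was given is not stated in the sources used here. Knockdown cells (shTet1, 3 libraries) carried short hairpin RNAs against Tet1, an enzyme that oxidises methylated cytosine, which the submitters call shTet1-a+b. Control cells (shNS, 3 libraries) carried a scrambled hairpin. Both groups received the pGFP-V-RS retroviral backbone, were kept in puromycin at 1 µg/mL over 3 passages and were adapted to SILAC medium before harvest, and every value comes from 1 line, with no parental or untransduced cells. Nothing in the labels says that libraries came from separate cultures, so the spread behind every error and p-value may be technical.

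Libraries held 15873632 to 18592139 reads on the genes measured. Tet1 itself was at 0.0982, 0.155 and 0.139 FPKM in shTet1 replicates 1, 2 and 3, against 0.489, 0.392 and 0.446 FPKM in shNS replicates 1, 2 and 3. It thus stood at 29.6% of its shNS mean in shTet1, below the 1 FPKM asked of a gene for testing. With limma, at a threshold of 0.05 on the adjusted p, 53.1% of the 11646 genes tested differed between the groups. Genes higher in shTet1 were 19.4% of those tested and genes lower in shTet1 were 33.7%. Higher genes thus made up 36.5% and lower genes 63.5% of the calls. The median log2 change over these genes was −0.13. Median-of-ratios scaling, which sets libraries to a common median ratio, shifted that median by 0.12 and made these shares 51.2 and 48.8%. Counts within gene lists are to be read against these shares.

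In the RefSeq annotation of GRCm38.p6, chromosome 19 holds 21 Ms4a genes in 1 cluster from 10962289 to 11640851. The 6 genes lie in its last 320 kb. Ms4a7 (gene ID 109225, 11321039 to 11336146, minus strand) is the 12th of the 21. Ms4a4c (gene ID 64380, 11404717 to 11427246), Ms4a6c (gene ID 73656, 11469353 to 11487182) and Ms4a6b (gene ID 69774, 11518559 to 11530403) follow on the plus strand. Ms4a6d (gene ID 68774, 11586606 to 11604804) and Ms4a3 (gene ID 170813, 11629499 to 11640851) lie beyond them on the minus strand, and Ms4a3 is the outermost gene of the cluster. Of the other Ms4a genes, Ms4a2, Ms4a4b and Ms4a8a were analysed here, so 9 of the 21 had values. Ms4a4a, between Ms4a7 and Ms4a4c, and Ms4a4d, between Ms4a6b and Ms4a6d, had none.

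Some neighbouring genes of the cluster resemble each other upstream of their starts as well as in their coding sequence. RefSeq start sites were matched for 5 of the 6 genes, all but Ms4a6d, with 2 starts for Ms4a7. The 250 bases before the start are printed for the 2 pairs that share the longest identical stretch, 5′ to 3′ on the strand of the gene, with that stretch in capitals. The windows are chr19:11518309-11518558 for Ms4a6b, chr19:11469118-11469367 for Ms4a6c, chr19:11407411-11407660 for Ms4a4c and chr19:11443308-11443557 for Ms4a4b, all on the plus strand of GRCm38.p6. These starts are not always the outer end of the gene. The Ms4a4c window lies inside its gene, which begins at 11404717, and the Ms4a6c window ends inside its gene, which begins at 11469353. One Ms4a7 window (11334696 to 11334945) also lies inside its gene.
Ms4a6b: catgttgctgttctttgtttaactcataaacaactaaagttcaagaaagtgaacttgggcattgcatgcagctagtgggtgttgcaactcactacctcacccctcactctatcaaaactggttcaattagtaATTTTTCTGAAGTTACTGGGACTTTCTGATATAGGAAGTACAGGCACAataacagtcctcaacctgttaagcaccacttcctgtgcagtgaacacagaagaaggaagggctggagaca
Ms4a6c: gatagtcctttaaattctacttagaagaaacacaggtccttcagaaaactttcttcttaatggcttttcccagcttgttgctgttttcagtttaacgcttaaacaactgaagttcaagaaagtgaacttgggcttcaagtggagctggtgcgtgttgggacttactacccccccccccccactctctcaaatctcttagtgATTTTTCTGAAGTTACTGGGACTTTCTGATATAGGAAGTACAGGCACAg
Ms4a4c: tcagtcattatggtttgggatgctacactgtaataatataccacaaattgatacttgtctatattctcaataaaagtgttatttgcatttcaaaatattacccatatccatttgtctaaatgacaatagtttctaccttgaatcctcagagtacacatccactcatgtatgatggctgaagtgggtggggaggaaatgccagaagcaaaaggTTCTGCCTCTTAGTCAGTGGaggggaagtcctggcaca
Ms4a4b: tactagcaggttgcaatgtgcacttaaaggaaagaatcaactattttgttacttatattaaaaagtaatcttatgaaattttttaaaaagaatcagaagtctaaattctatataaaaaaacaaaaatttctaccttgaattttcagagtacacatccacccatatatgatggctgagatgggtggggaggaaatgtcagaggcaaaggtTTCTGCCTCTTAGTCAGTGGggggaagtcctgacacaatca

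The stretch shared by Ms4a6b and Ms4a6c is 48 bases long. It ends 71 bases before the start of Ms4a6b and 2 bases before that of Ms4a6c. Ms4a4c and Ms4a4b share 20 bases, and the next longest run between any windows of the family was 12 bases, in Ms4a3 and Ms4a4c. The run of the Ms4a6 pair contains GGAAGT, a core that ETS factors such as PU.1 can bind, which was looked for only after these sequences had been read. On either strand GGAAGT occurs in at least 1 window of all 5 matched genes and in 23.8% of the 32851 windows of 300 bases, 250 before and 50 after each start, in the mouse annotation. The longer PU.1-type letters GAGGAA were in the windows of Ms4a3, Ms4a4c and Ms4a7 and in 28.3% of all windows. These 2 motifs share the letters GGAA and can overlap, although none of the matches in these genes did.

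Other myeloid motifs were sparse in the same windows, on either strand. The C/EBP letters TTGCNNAA were found in Ms4a3 alone of the 5 genes, past its start, and in 10.8% of all windows. The AP-1 letters TGANTCA were in 1 window of Ms4a7 and in 7.81% of all windows. Neither the interferon-stimulated response element (3.44% of all windows) nor TATAAA (13.6%) occurred in the windows of the 5 genes. The windows of Ms4a3, Ms4a4c and Ms4a6b held 0 CpG dinucleotides, the bases at which Tet1 acts when they are methylated. That of Ms4a6c held 4 and those of Ms4a7 held 1 and 6, against a median of 7 over all windows (quartiles 3 and 20). A match to such letters describes a sequence and does not show a bound site.

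Ms4a6d, found in monocytes and macrophages, had the highest level of the group other than Ms4a3. It was at 210.2, 186 and 117 FPKM in shTet1 replicates 1, 2 and 3, against 28.8, 29.9 and 23.3 FPKM in shNS replicates 1, 2 and 3. All 3 shTet1 libraries lay above all 3 shNS libraries, and shTet1 replicate 3 was the lowest of its group. The means were 171 ± 48.4 FPKM in shTet1 and 27.3 ± 3.52 FPKM in shNS (SD, n = 3 each), a ratio of 6.25 and a log2 change of 2.57 (SE 0.21) on the log2(FPKM + 1) scale.

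Ms4a6c was at 144, 134 and 78.0 FPKM in shTet1 replicates 1, 2 and 3, against 15.8, 18.2 and 15.4 FPKM in shNS replicates 1, 2 and 3. The groups were again apart, with shTet1 replicate 3 low among the shTet1 libraries. Its means of 119 ± 35.6 FPKM in shTet1 and 16.5 ± 1.53 FPKM in shNS differed by a ratio of 7.19, and its log2 change of 2.73 (SE 0.21) ranked 5 of 11646 from the top. Ms4a6c carries a limit of its own. Of its 51-base transcript stretches, 56.7% are shared with another gene once the opposite strand is counted, most of them with the antisense gene BE692007 (11470166 to 11484578), and 10.9% on its own strand. The libraries kept the strand, but whether the counting used it is not given in the sources used here, so reads of the 2 genes may not be told apart.

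Ms4a6b, the least abundant of the 3, was at 57.0, 43.5 and 26.8 FPKM in shTet1 replicates 1, 2 and 3, against 7.71, 8.50 and 7.16 FPKM in shNS replicates 1, 2 and 3. Every shTet1 library lay above every shNS library. The means were 42.4 ± 15.2 FPKM in shTet1 and 7.79 ± 0.676 FPKM in shNS, a ratio of 5.45 and a log2 change of 2.24 (SE 0.24). The order of the 3 genes was the same in all 6 libraries. Ms4a6d was 1.38 to 1.499 times Ms4a6c in shTet1 and 1.51 to 1.82 times in shNS, and Ms4a6c was 2.52 to 3.09 times Ms4a6b in shTet1 and 2.06 to 2.15 times in shNS. Within their sum, Ms4a6c took 35.7 ± 1.07% in shTet1 and 32.02 ± 1.66% in shNS, and Ms4a6b took 12.6 ± 1.07% in shTet1 and 15.1 ± 0.447% in shNS.

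Ms4a7 and Ms4a4c were much less abundant. Ms4a7, the tissue macrophage marker, was at 5.42, 4.42 and 2.72 FPKM in shTet1 replicates 1, 2 and 3, against 0.689, 0.380 and 0.311 FPKM in shNS replicates 1, 2 and 3. The groups did not overlap, and the shNS values rest on 22, 11 and 9 reads. Its means were 4.18 ± 1.37 FPKM in shTet1 and 0.460 ± 0.202 FPKM in shNS, a ratio of 9.10, while its log2 change of 1.80 (SE 0.20) is understated by the pseudocount of 1.

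Ms4a4c was at 13.1, 9.77 and 3.44 FPKM in shTet1 replicates 1, 2 and 3, against 0.562, 0.619 and 0.378 FPKM in shNS replicates 1, 2 and 3. All shTet1 libraries were above all shNS libraries, but shTet1 replicate 3 stood at 0.300 times the mean of the other 2. The means were 8.77 ± 4.91 FPKM in shTet1 and 0.520 ± 0.126 FPKM in shNS, the widest ratio of the 6 genes at 16.9, with a log2 change of 2.53 (SE 0.37). Both Ms4a7 and Ms4a4c met the 1 FPKM needed for testing through their shTet1 libraries alone, which left no room for a gene of their shNS level unless it differed. In the authors' deposited table the log2 change was 4.20 for Ms4a4c and 3.30 for Ms4a7, against 2.58 to 2.98 for the 3 Ms4a6 genes.

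Ms4a3, the progenitor gene, went the other way. It was at 314, 262 and 289 FPKM in shTet1 replicates 1, 2 and 3, against 437, 357 and 398 FPKM in shNS replicates 1, 2 and 3. No shTet1 library reached the lowest shNS library, and in both groups replicate 1 was highest and replicate 2 lowest. The shTet1 mean was 72.6% of the shNS mean, and the ratio within same-numbered libraries was 0.718, 0.735 and 0.725. Its log2 change was −0.46 (SE 0.11), or −0.33 relative to the median of all genes tested.

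**Figure D1:**
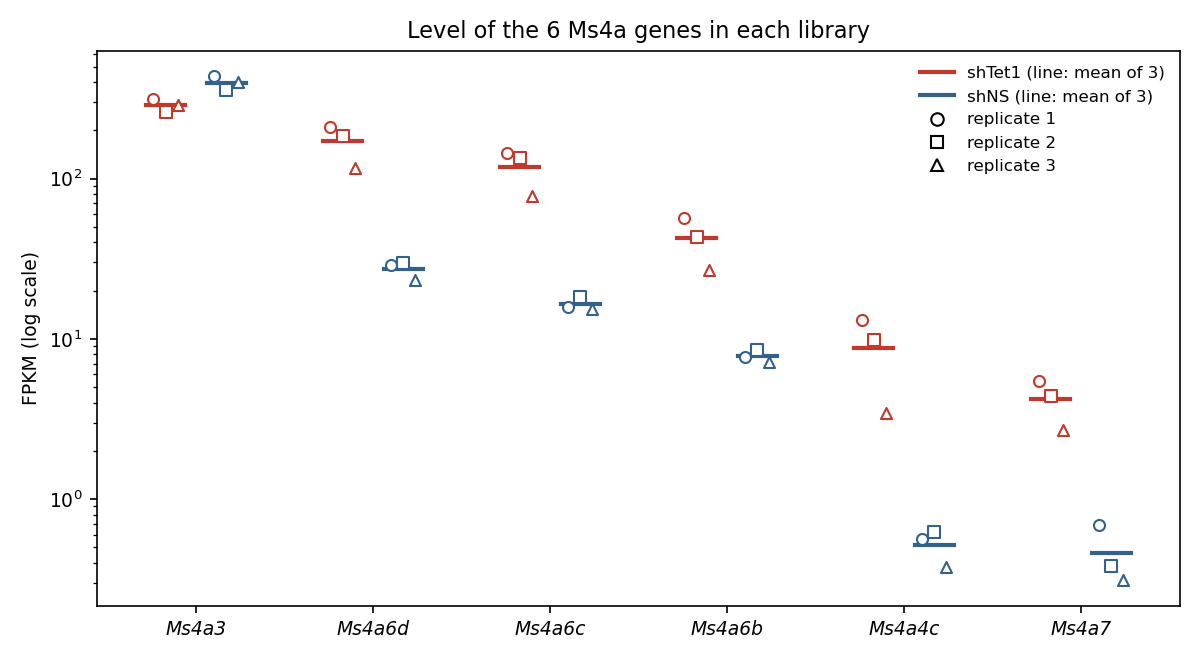
Level of the 6 Ms4a genes in each library (y axis, FPKM on a log scale), with shTet1 left of shNS for each gene; points are libraries, symbols mark the replicate number and lines are means of 3. For 5 genes every shTet1 point lies above every shNS point, for Ms4a3 every shTet1 point lies below, and shTet1 replicate 3 is the lowest shTet1 point of those 5 genes.

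By the limma threshold, 5 of the 6 genes counted as higher in shTet1, as did 19.4% of all genes tested, and Ms4a3 counted as lower, as did 33.7%; in either direction the share was 53.1%. Every shTet1 library was above every shNS library for 22.6% of all genes tested and below for 39.1%. Because the 6 genes were chosen from this comparison, nothing is read from these counts. From top to bottom, the shTet1 order of means was Ms4a3, Ms4a6d, Ms4a6c, Ms4a6b, Ms4a4c and Ms4a7, and it was the same in shNS. Among neighbours in that order, the ranges over libraries overlapped for Ms4a6d with Ms4a6c and for Ms4a4c with Ms4a7 in shTet1, and for Ms4a4c with Ms4a7 in shNS. The gap between Ms4a3 and Ms4a6d narrowed, since Ms4a3 was 1.41 to 2.47 times Ms4a6d in the shTet1 libraries and 11.9 to 17.1 times in the shNS libraries.

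Summed over the 9 Ms4a genes analysed, the level was 758, 654 and 528 FPKM in shTet1 replicates 1, 2 and 3, against 496, 419 and 448 FPKM in shNS replicates 1, 2 and 3. The groups did not overlap. Ms4a3 made up 41.4, 40.1 and 54.7% of that sum in shTet1 and 88.1, 85.0 and 88.8% in shNS. Ms4a6b, Ms4a6c and Ms4a6d together made up 50.6 ± 7.47% in shTet1 and 11.4 ± 1.79% in shNS. In bulk RNA such as this, fewer cells of a type and less RNA per cell cannot be told apart.

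**Figure D2:**
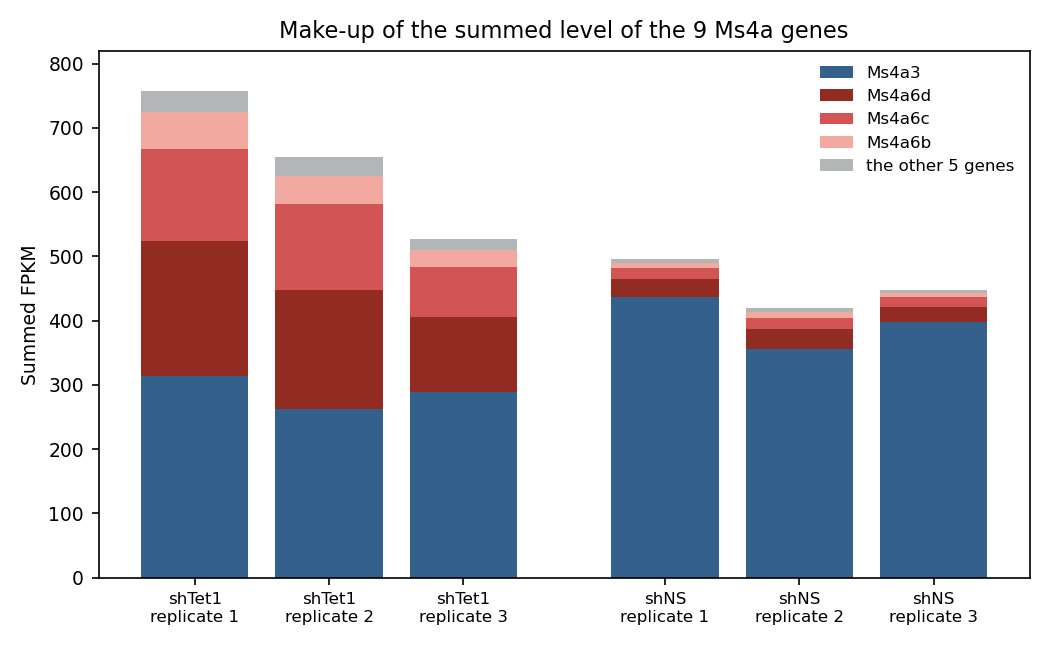
Summed level of the 9 Ms4a genes analysed (y axis, FPKM) in the 3 shTet1 libraries and then the 3 shNS libraries, each bar split by gene or gene group. Ms4a3 fills 40.1 to 54.7% of the shTet1 bars and 85.0 to 88.8% of the shNS bars.

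The libraries of shTet1 did not carry these genes evenly. In replicate 3 the level was 0.533, 0.561, 0.591 and 0.552 times the mean of replicates 1 and 2 for Ms4a6b, Ms4a6c, Ms4a6d and Ms4a7, beside the 0.300 for Ms4a4c, while for Ms4a3 it was 1.00 times. In shNS, too, replicate 3 was the lowest library for each of the 5 genes other than Ms4a3. A low replicate 3 was not particular to the family. Of the 2254 genes called higher in shTet1, 51.9% had their lowest shTet1 value in replicate 3, and of the 539 with a log2 change of at least 1, 69.0% did, with median ratios of 0.933 and 0.831. Without shTet1 replicate 3 the log2 change was 3.02 for Ms4a4c, 2.53 for Ms4a6b, 3.003 for Ms4a6c, 2.82 for Ms4a6d, 2.02 for Ms4a7 and −0.46 for Ms4a3.

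**Figure D3:**
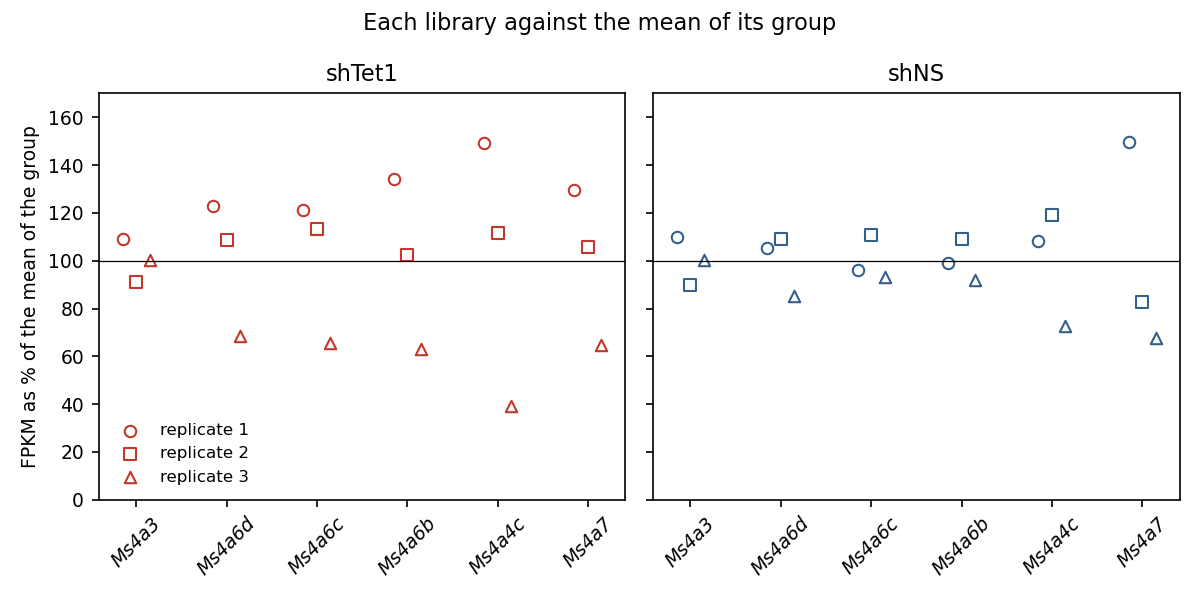
Each library as a percentage of the mean of its own group (y axis) for the 6 genes, shTet1 in the left panel and shNS in the right. The shTet1 replicate 3 points of all genes but Ms4a3 lie under the 100% line and under the other shTet1 libraries, and the shNS libraries spread less for each of these genes but Ms4a7.

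Of the other genes of the family, Ms4a4b, a membrane protein of mouse T cells, is the closest copy of Ms4a4c, with 91.7% of aligned coding bases identical. It averaged 4.0 ± 1.25 FPKM in shTet1 and 0.773 ± 0.332 FPKM in shNS, and rose (log2 change 1.48, SE 0.22). Only 1 shNS library reached 1 FPKM, so Ms4a4b met the filter because of its shTet1 level, and no p-value is given for it. Since 7.90% of the 51-base stretches of Ms4a4c also occur in Ms4a4b or a further copy, a small part of the reads of either gene could belong to the other. Ms4a8a, which lies 4th in the cluster, rose too, at 8.64 ± 0.425 FPKM in shTet1 and 2.71 ± 0.503 FPKM in shNS (log2 change 1.39, SE 0.12, limma adjusted p = 0.000112). Its shTet1 libraries were nearly level at 8.90, 8.87 and 8.15 FPKM.

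Ms4a2, the IgE receptor chain next to Ms4a3, was at 1.06, 0.722 and 0.416 FPKM in shTet1 replicates 1, 2 and 3, against 1.53, 1.05 and 1.22 FPKM in shNS replicates 1, 2 and 3. The groups overlapped, and its log2 change of −0.40 (SE 0.16) did not pass (limma adjusted p = 0.0639), although it did with the replicate number as a block (limma adjusted p = 0.0237). Tmem176a and Tmem176b on chromosome 6, whose proteins resemble the MS4A family, both fell. Tmem176b averaged 6.93 ± 1.63 FPKM in shTet1 and 20.7 ± 0.526 FPKM in shNS, and Tmem176a 8.31 ± 1.04 FPKM in shTet1 and 19.6 ± 2.77 FPKM in shNS, with log2 changes of −1.47 and −1.14 (SE 0.14 and 0.13, limma adjusted p = 0.00017 and 0.000304). Of these 5 relatives, 2 rose and 2 fell, beside 19.4 and 33.7% of all genes tested, with the limit given for Ms4a4b.

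Coding sequences place the Ms4a6 genes together. Of aligned coding bases, 86.4% were identical between Ms4a6b and Ms4a6c, 81.8% between Ms4a6b and Ms4a6d and 79.6% between Ms4a6c and Ms4a6d, against 62.7 to 66.8% between Ms4a3 and the other 5 genes. With gaps counted, these 3 pairs were at 74.7, 80.1 and 67.2%, and Ms4a3 was at 45.7 to 50.8%. The closest pair thus depends on how gaps are treated. The transcripts of Ms4a3 and Ms4a7 shared no 51-base stretch with another gene. On the same strand Ms4a6b shared 5.63% of its stretches and Ms4a6d 2.56%, so their values rest mostly on reads that fit 1 gene.

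Genes around the cluster did not move as 1 block. With a start within 1 Mb of a member there were 22 tested genes outside the family, and their median log2 change was −0.01. Of these 22, 7 rose and 7 fell, beside 19.4 and 33.7% of all genes tested. Mpeg1, whose macrophage protein forms pores in engulfed bacteria, rose most (12460770 to 12465285, 507 ± 69.0 FPKM in shTet1 and 121 ± 13.0 FPKM in shNS, log2 change 2.05, limma adjusted p = 5.1e-05). Slc15a3, a lysosomal peptide transporter on the other side of the cluster (10842544 to 10857915), averaged 54.3 ± 9.62 FPKM in shTet1 and 16.1 ± 2.86 FPKM in shNS (log2 change 1.69, limma adjusted p = 0.000164). Tmem132a, AW112010, Dtx4, the membrane fusion gene Stx3 and Tmem109 rose by 0.44 to 1.16. The cilium genes Tmem138 and Tmem216, the splicing factor Prpf19, the DNA damage sensor Ddb1, Dak, the mitochondrial ribosome gene Mrpl16 and the polyadenylation factor Cpsf7 fell, with log2 changes of −0.77 to −0.30. AW112010, Tmem109, Mrpl16 and Cpsf7 lost their call when a single library was left out, and Mrpl16 and Cpsf7 also under median-of-ratios scaling.

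**Figure D4:**
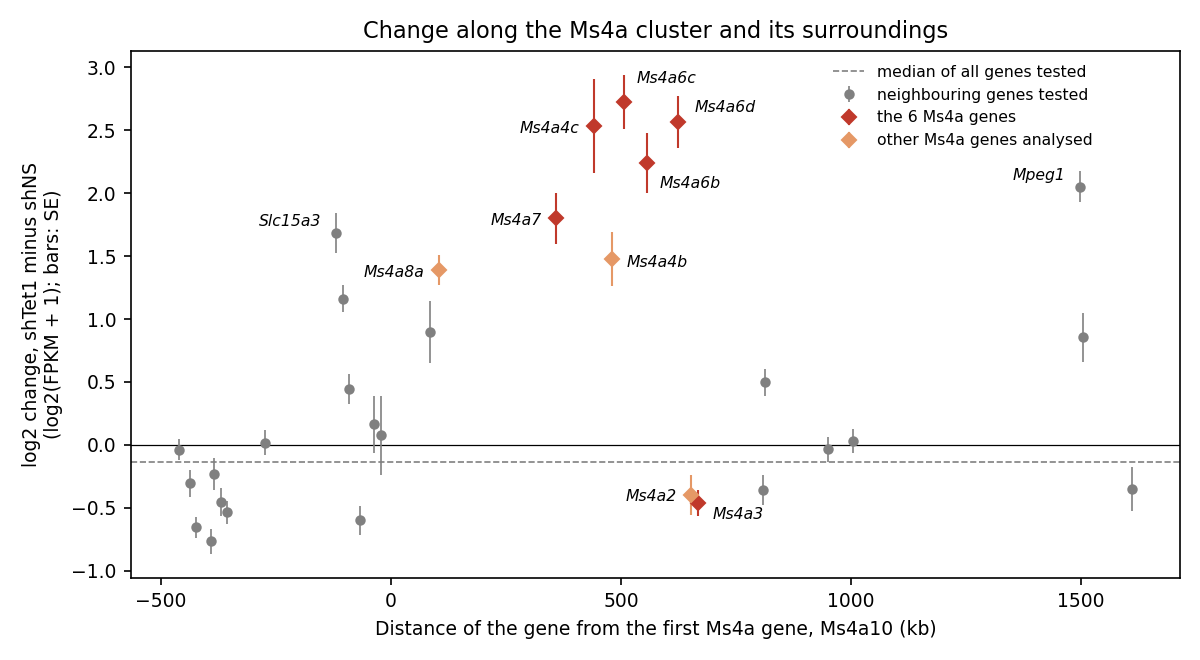
Log2 change of shTet1 minus shNS on log2(FPKM + 1) (y axis, bars SE) against the distance of each gene from the first gene of the cluster (x axis, kb), for the 6 genes, the other Ms4a genes analysed and their tested neighbours; the dashed line is the median of all genes tested. Among the Ms4a genes plotted, the 5 at 1.80 to 2.73 follow one another with Ms4a4b, at 1.48, between them. Ms4a4a and Ms4a4d also lie among them but had no values here. Ms4a2 and Ms4a3, at −0.40 and −0.46, close the cluster at its far end.

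A list of 10 genes for known partners of any MS4A protein was mostly higher. Of these, 6 rose and 2 fell, beside 19.4 and 33.7% of all genes tested, with a median log2 change of 0.81. Of the links given above, only that of Cdkn3 and Cdk2 is to a gene described here, Ms4a3. Clec7a and Trem2 were tied to human MS4A4A, and mouse Ms4a4a had no values here. Lyn and Syk were tied to MS4A2. Clec7a, the beta-glucan receptor dectin-1, averaged 68.2 ± 10.8 FPKM in shTet1 and 14.1 ± 2.36 FPKM in shNS (log2 change 2.20, SE 0.15, limma adjusted p = 5.1e-05). Trem2, a lipid-sensing receptor of macrophages, averaged 83.9 ± 9.47 FPKM in shTet1 and 20.5 ± 2.19 FPKM in shNS (log2 change 1.98, SE 0.11, limma adjusted p = 4.5e-05). The tyrosine kinase Lyn, the receptor gamma chain Fcer1g, the adaptor Tyrobp and the kinase Syk also rose, by 1.11, 0.98, 1.02 and 0.64 on the log2 scale.

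The other 4 partner genes fell or did not pass. Cdk2 averaged 32.9 ± 2.59 FPKM in shTet1 and 41.9 ± 1.49 FPKM in shNS and fell (log2 change −0.34, limma adjusted p = 0.0108), a call lost under median-of-ratios scaling. Cdkn3 did not pass, at 11.4 ± 1.27 FPKM in shTet1 and 13.0 ± 2.32 FPKM in shNS (limma adjusted p = 0.331). Fcer1a, the IgE-binding alpha chain, fell, at 3.21 ± 0.910 FPKM in shTet1 and 6.26 ± 1.80 FPKM in shNS (log2 change −0.78, limma adjusted p = 0.0132), and lost its call without shTet1 replicate 2. Tnfrsf18, the T cell receptor GITR that mouse Ms4a4b binds, did not pass (limma adjusted p = 0.701).

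Macrophage genes were higher in the same libraries. All 14 tested genes of a macrophage and monocyte list rose, with a median log2 change of 1.58, and 12 of them had their lowest shTet1 value in replicate 3. Of the 14, the efferocytosis receptor Mertk and the chemokine receptor Cx3cr1 reached 1 FPKM through shTet1 alone. Mrc1, the macrophage mannose receptor, averaged 59.0 ± 2.70 FPKM in shTet1 and 15.1 ± 1.60 FPKM in shNS (log2 change 1.90, limma adjusted p = 2.5e-05). Emr1, the F4/80 antigen, averaged 81.3 ± 6.19 FPKM in shTet1 and 26.1 ± 1.82 FPKM in shNS (log2 change 1.60), and Msr1, a scavenger receptor, 61.7 ± 5.06 FPKM in shTet1 and 20.3 ± 1.61 FPKM in shNS (log2 change 1.56). Mpeg1, described with the neighbours of the cluster, belongs to this list as well.

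The summed level of 7 defining macrophage markers was 1000 to 1253 FPKM in the shTet1 libraries and 285 to 340 FPKM in the shNS libraries. Within the wider list, 5 further genes lay under the level needed for testing. For 3 of them every shTet1 library was above every shNS library, and for Cd163 every shTet1 library was below. Over all genes tested these shares were 22.6 and 39.1%, a background that leaves out genes under the filter such as these. The separation was narrow for C1qc, with 7 reads in shTet1 replicate 3 and 6 in shNS replicate 3. It was narrow for Marco too, with 30 reads in shTet1 replicate 1 and 29 in shNS replicate 1. The sialic acid receptor Siglec1 averaged 0.780 ± 0.286 FPKM in shTet1 and 0.114 ± 0.0147 FPKM in shNS, the complement gene C1qc 1.15 ± 0.645 FPKM in shTet1 and 0.182 ± 0.143 FPKM in shNS, and the scavenger receptor Marco 1.69 ± 0.960 FPKM in shTet1 and 0.660 ± 0.185 FPKM in shNS. Cd163, a haemoglobin scavenger receptor of tissue macrophages, was lower, at 0.236 ± 0.0483 FPKM in shTet1 and 0.347 ± 0.0604 FPKM in shNS, and the fatty acid receptor Cd36 overlapped between the groups. Summed markers of B cells, of T and NK cells and of erythroid cells reached at most 4.08 FPKM in any library. The part of these macrophage transcripts in the levels of the Ms4a genes was not tested.

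A granulocyte progenitor list, which reaches beyond the cells that Ms4a3 marks to secondary granule genes such as Ltf, did not move together. Of 14 tested, 8 fell and 3 rose, with a median log2 change of −0.39. Ltf, the secondary granule protein lactoferrin, fell furthest of the 4 named here, at 18.0 ± 2.44 FPKM in shTet1 and 107 ± 24.5 FPKM in shNS (log2 change −2.49, limma adjusted p = 5.1e-05). Mpo, the peroxidase of primary granules, averaged 816 ± 113 FPKM in shTet1 and 1463 ± 79.1 FPKM in shNS (log2 change −0.85, limma adjusted p = 0.000768). Hexokinase Hk3 fell by 0.53 on the log2 scale. Elane, neutrophil elastase, rose instead, at 771 ± 59.2 FPKM in shTet1 and 511 ± 42.1 FPKM in shNS (log2 change 0.59, limma adjusted p = 0.00158). The receptor Csf3r and the siderophore binder Lcn2 rose by 0.90 and 0.38, a call that Lcn2 lost under most of the libraries left out. Of 4 progenitor markers taken alone (Mpo, Elane, Prtn3 and Ctsg), 1 rose, 1 fell and 2 did not pass. Their median log2 change was −0.004. The summed level of these 4 was 3062 to 3588 FPKM in shTet1 and 3541 to 3810 FPKM in shNS, ranges that overlap.

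Transcription factors of the myeloid lineage were the last group set beside the cluster. Of 12 tested, 9 rose and 1 (Gfi1, a repressor needed for granulocytes) fell, with a median log2 change of 0.98. Klf4, a monocyte factor, averaged 36.2 ± 4.77 FPKM in shTet1 and 9.31 ± 1.70 FPKM in shNS (log2 change 1.86, limma adjusted p = 7.9e-05). Irf8, needed for monocytes and dendritic cells, averaged 36.6 ± 2.51 FPKM in shTet1 and 15.1 ± 1.05 FPKM in shNS (log2 change 1.22, limma adjusted p = 6.4e-05). Irf5, an interferon regulatory factor of macrophages, and Tfec, a relative of MITF, rose by 1.11 and 0.85 on the log2 scale. Cebpa and Runx1 did not pass (limma adjusted p = 0.394 and 0.890).

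**Figure D5:**
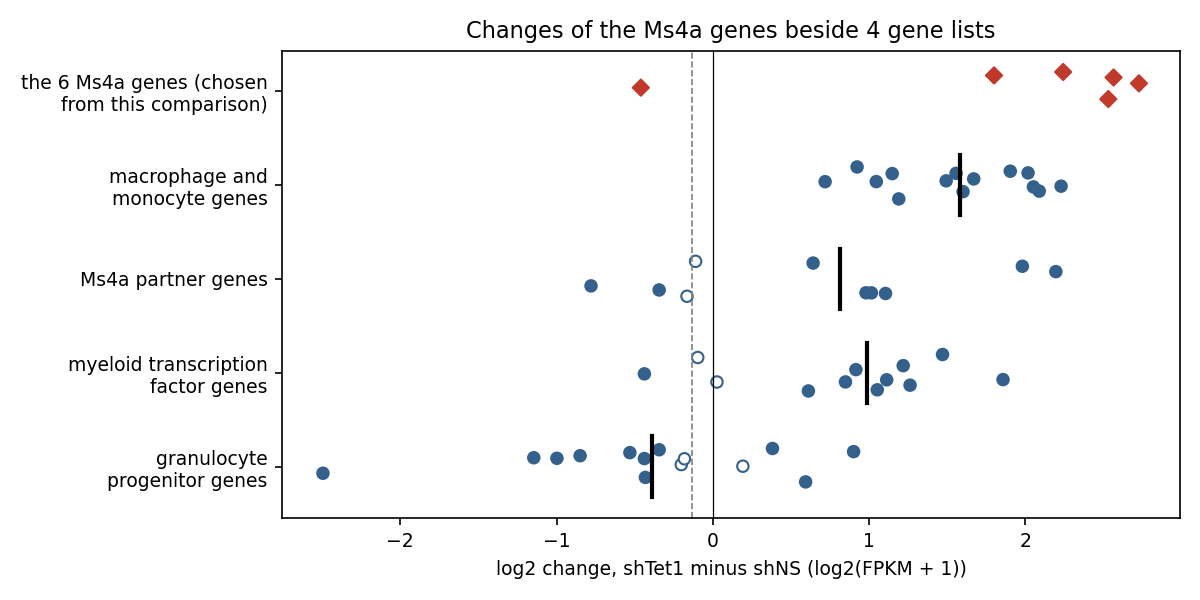
Log2 change of shTet1 minus shNS on log2(FPKM + 1) (x axis) for the 6 Ms4a genes, which were chosen from this comparison, above 4 gene lists (y axis); in the lists, filled points are genes past the limma threshold, open points those that were not, bars the median of each list and the dashed line that of all genes tested. Medians are 1.58 for macrophage and monocyte genes, 0.81 for partners, 0.98 for transcription factors and −0.39 for granulocyte progenitor genes.

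Genes with a profile over the 6 libraries most like that of the Ms4a genes were ranked by Pearson's r of log2(FPKM + 1), among 8711 genes with a mean of at least 5 FPKM. Closest to the mean of Ms4a6b, Ms4a6c and Ms4a6d were LOC100038947, Abi3 (an actin-regulating adaptor), Mmp8 (neutrophil collagenase), Anxa1 (annexin A1) and Trafd1 (a feedback regulator of innate immune signals), with r of 0.999 each. Mmp8 averaged 1072 ± 269.7 FPKM in shTet1 and 293 ± 10.4 FPKM in shNS. Closest to Ms4a3 were Ssr3 (a subunit of the translocon-associated protein complex), Upf2 (nonsense-mediated decay), Exoc6 (exocyst), Polr3k (RNA polymerase III) and Acp6 (a lipid phosphatase), with r of 0.997 to 0.999. Ssr3 averaged 98.7 ± 12.5 FPKM in shTet1 and 148 ± 18.2 FPKM in shNS. Such values describe 6 libraries that fall into 2 groups, and 887 genes had r above 0.95 with the Ms4a6 mean and 604 with Ms4a3.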

How the data were processed

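RNA of MLL-ENL-ERtm cells was sequenced in 6 libraries (3 shTet1, 3 shNS) as single-end reads of 51 bp from poly(A) RNA in directional libraries, per the labels' protocols. Groups and replicate numbers came from the titles. The free-text descriptions give another numbering, with 1 number shared by all libraries of a group, so every value by replicate number rests on the titles. Per the submitters' processing notes, reads were placed on GRCm38. No aligner, counter or test by the authors is named in the sources used here.

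Values per library in the authors' single deposited table were taken as FPKM, since no header names the unit. The signal deposited for each group was found to be a mean of reads over size factors, and the deposited log2 fold change is the authors' own, per the file headers. Together they gave whole reads for 99.999% of values within 0.001 read (largest deviation 0.00119). All 6 value columns matched a title, and 22 symbols turned into dates and 12 blank ones were resolved by gene ID. RefSeq held 13798 of the IDs. Replicates differed beyond counting noise (chi-square per degree of freedom of recovered reads from 4.49 to 36.4).

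The members and gene lists were chosen with earlier results of these data known. limma 3.58.1 (R 4.3.3) with an intensity trend was fitted to log2(FPKM + 1), group as the sole term, for genes that reached 1 FPKM in 3 or more libraries, two-sided, with Benjamini-Hochberg adjustment over all genes tested and a threshold of 0.05. Such log2 changes understate those of low genes. Errors of levels are SD, and errors of changes are SE from limma. The fit was also run on simulated data with 200 changed genes and independently drawn libraries. That setting lacks the correlated libraries and the large share of called genes seen here, so nothing about the calls is read from it.

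Named were the members, the other family genes, the neighbours past the test, up to 4 genes of each list with the smallest p, and the 5 genes most like each of 2 profiles. Genes named beyond this rule were chosen after their values were seen. Alternatives were a pseudocount of 0.1, no filter, a filter of 5 FPKM, median-of-ratios scaling, limma-voom on recovered reads (at least 10 in at least 3 libraries), the replicate number as a block, each library left out and both replicate 1 libraries left out. In fits with libraries left out, the genes tested were those that pass the filter in all 6. After subtraction of group means, libraries of the same number correlated across genes at 0.61, 0.36 and 0.21, each over 0.1. The numbers were therefore taken as pairs, but in the block alternative alone. The main fit, with its errors, p-values and calls, leaves the pairs out. Of the pairs of different number, shTet1 replicate 3 with shNS replicate 2 (0.34, above the 0.21 of its own number) and shTet1 replicate 2 with shNS replicate 3 (0.14) were also over 0.1, so the pairing of replicates 2 and 3 is weakly founded. Promoter windows, start sites and genes of the cluster are those of RefSeq (GRCm38.p6). Transcripts and coding sequences for shared stretches and identity came from the GENCODE annotation of GRCm38.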

Additional observations from a re-analysis of the deposited data

How the results depend on the processing

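No member changed the sign of its log2 change under any alternative run. With single libraries left out it ranged from −0.53 to −0.39 for Ms4a3, 2.19 to 3.02 for Ms4a4c, 2.002 to 2.53 for Ms4a6b, 2.57 to 3.003 for Ms4a6c, 2.40 to 2.82 for Ms4a6d and 1.63 to 2.02 for Ms4a7. The values of low genes moved with the scale: with a pseudocount of 0.1 and with limma-voom on recovered reads the change was 3.66 and 3.89 for Ms4a4c and 2.94 and 3.17 for Ms4a7, neither of which was measured under the filter of 5 FPKM. With that filter 3 of the family's relatives were tested, Ms4a4b not among them, and 1 rose in place of 2. With median-of-ratios scaling, and also without shTet1 replicate 2, 1 partner fell in place of 2. Single libraries left out gave 1741 to 2294 genes higher and 2830 to 4010 lower, 5 to 8 neighbours higher and 5 to 7 lower, 1 to 2 partners lower, 2 to 3 relatives lower, 7 to 9 transcription factors higher, and 2 to 3 progenitor genes higher and 7 to 9 lower. The macrophage count was 14 in each of these fits, and 16 with no filter, 15 with limma-voom and 12 with the filter of 5 FPKM. With the replicate number as a block, which uses the pairs, 2692 genes were higher and 4780 lower, against 2254 and 3925 without it, and 3 relatives fell in place of 2. In shNS, Ms4a7 rests on 9 to 22 reads and Ms4a4c on 11 to 18, so counting error limits both levels.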

Other observations

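Markers of other cell types were mostly lower in the knockdown for mast cells and basophils, divided for megakaryocytes and at low levels for the rest. Of 4 tested mast cell and basophil genes 3 fell, beside 33.7% of all genes tested. The summed level of the 4 was 45.3 to 65.4 FPKM in shTet1 and 153 to 176 FPKM in shNS. Mcpt8, a basophil protease, averaged 43.2 ± 6.63 FPKM in shTet1 and 140 ± 6.80 FPKM in shNS (log2 change −1.68, SE 0.11, limma adjusted p = 5.2e-05), and Cpa3, the mast cell carboxypeptidase, 6.64 ± 2.58 FPKM in shTet1 and 15.6 ± 3.34 FPKM in shNS (log2 change −1.15, SE 0.24, limma adjusted p = 0.00523). The megakaryocyte integrin Itga2b averaged 7.01 ± 0.558 FPKM in shTet1 and 28.5 ± 2.26 FPKM in shNS and fell by 1.88 on the log2 scale (limma adjusted p = 2.5e-05), as did Gp9 by 1.33, while the platelet chemokine Pf4 was at 79.8 ± 8.79 FPKM in shTet1 and 80.4 ± 8.13 FPKM in shNS and did not pass (limma adjusted p = 0.938). Among B cell markers Cd22, a lectin of B cells, was at 2.23 ± 0.407 FPKM in shTet1 and 0.505 ± 0.149 FPKM in shNS, and it reached the 1 FPKM needed for testing through shTet1 alone. Cd79b fell to 1.04 ± 0.115 FPKM in shTet1, against 2.08 ± 0.298 FPKM in shNS (limma adjusted p = 0.00327). B cell markers summed to 3.17 to 4.08 FPKM in shTet1 and 2.95 to 3.27 FPKM in shNS, T and NK cell markers to 0.847 to 1.79 FPKM in shTet1 and 3.27 to 3.88 FPKM in shNS, and erythroid markers to 0.989 to 1.41 FPKM in shTet1 and 2.16 to 2.73 FPKM in shNS.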
